A study of Mus musculus with 48 samples.

Results

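The first hours after a middle cerebral artery occlusion (MCAO) were examined by comparing injured brain tissue taken 3 h after surgery with tissue from sham-operated mice of the same time. The 2 groups were defined by the labels of the libraries alone, with 5 MCAO libraries (A to E) and 4 sham libraries (A to D), which made 9 of 48 bulk RNA-seq libraries of the series. The remaining libraries were MCAO and sham tissue of 12 h, 24 h, day 3 and day 7, and 4 libraries of intact control brain. All animals were 3-month-old male C57Black/6 mice, with no transgene or agent named for any group of this comparison. In MCAO, the middle cerebral artery was exposed through a hole drilled in the frontal bone under isoflurane anesthesia, coagulated and cut, so that the occlusion was permanent and left a small infarct in the parietal cortex. Sham mice went through the operation without the coagulation, and control mice were not operated. The labels gave the tissue as brain and the dissected piece as injured cortex together with unaffected tissue around it, whereas the series description named forebrain hemispheres, so each value is a mean over injured and uninjured cells. In such bulk tissue, fewer cells of a type and less RNA per cell cannot be told apart.

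A permanent occlusion stops the supply of oxygen and glucose to the territory of the artery within minutes. Neurons lose their membrane potential, glutamate and potassium are released, and calcium enters the cells, which switches on immediate early genes that need no new protein to be transcribed. Unfolded protein induces heat shock genes, and cytokines and chemokines made by glia and vessel cells later attract leukocytes from the blood. At 3 h the lesion is young, and most infiltration and scar formation are known to come later.

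The counts assigned to genes ranged from 1711134 to 2575802 in the 9 libraries, and 16557 to 17904 genes had at least 1 read. Synthetic ERCC spike-in RNA made up 4.38% ± 0.51 (SD, n = 5) of gene and spike-in counts after MCAO and 4.11% ± 0.29 (SD, n = 4) in sham, a difference of 0.27 percentage points with an exact two-sided permutation p of 0.46. Cortical markers were present in every library, with *Slc17a7*, the vesicular glutamate transporter of cortical neurons, between 319 and 602 CPM (read counts normalised to the library's gene counts and its TMM factor). The summed CPM of striatal markers varied within both groups. It was 2178 and 1961 in MCAO A and B and 1505 in sham D, but 356 to 677 in the other 6 libraries. Sham C carried RNA of the pituitary, with 553 CPM summed over 8 hypothalamic and pituitary markers against 1.19 to 9.92 CPM in the other 8 libraries.

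At 3 h, 22 of 19970 genes passed an adjusted p under 0.01 with a log2 fold change beyond 0.58 in either direction (edgeR quasi-likelihood test over all 48 libraries, Benjamini-Hochberg adjustment), which was 0.11% of the genes. Of these, 18 genes (0.0901%) were higher after MCAO and 4 (0.02%) were lower. The risen genes comprised 3 transcription factors of the immediate early class (*Fosb*, *Csrnp1*, *Maff*), the growth arrest genes *Gadd45b* and *Gadd45g*, the activity-induced synaptic genes *Nptx2* and *Rgs2*, the heat shock gene *Hspa1a*, and 10 others. All 18 were higher in each of the 5 MCAO libraries than in each of the 4 sham libraries. Over all genes, 3.58% had groups that did not overlap, 2.27% with MCAO higher and 1.31% with MCAO lower. When only the 9 libraries of 3 h entered the fit, 85 genes (0.426%) were called, 78 of them higher, and 20 of the 22 were among them. DESeq2 on all libraries called 58 genes (0.29%), also with 20 of the 22. Scaling to the spike-in RNA left 14 calls, 9 higher and 5 lower, and moved the median of all genes by -0.10 on the log2 scale. Leaving out 1 library gave 5 to 20 calls, with 5 without sham C and 7 without MCAO A. The biological coefficient of variation shared by all genes was 24.9% over the 48 libraries and 20.2% over the 9.

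**Figure D1:**
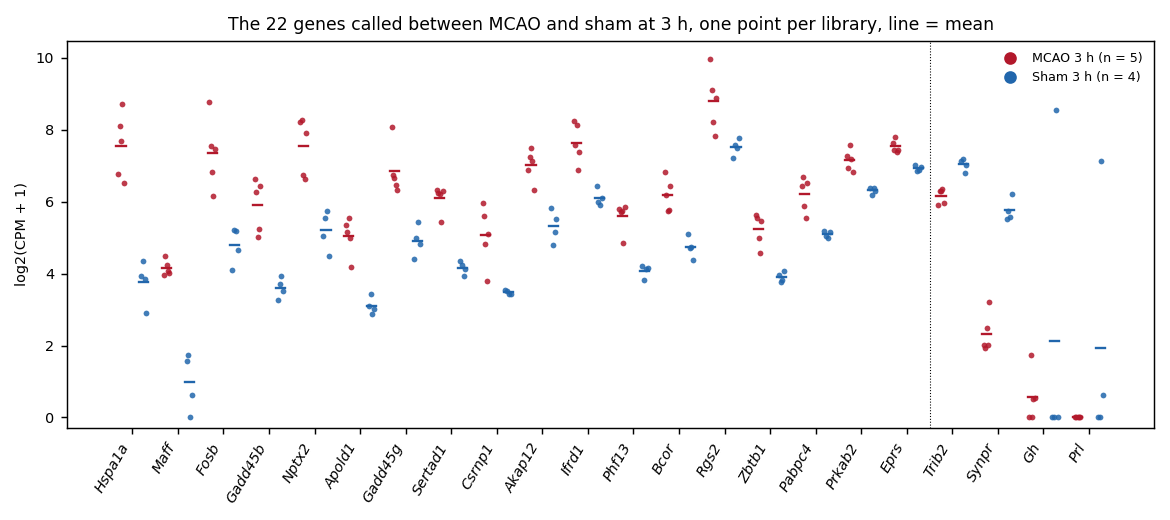
Expression of the 22 called genes as log2(CPM + 1), with 1 point per library, MCAO in red (n = 5), sham in blue (n = 4) and a line at each mean. Left of the dotted line, the points of the groups do not overlap for any of the 18 risen genes, and on the right *Gh* and *Prl* are high in 1 sham library only.

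**Figure D2:**
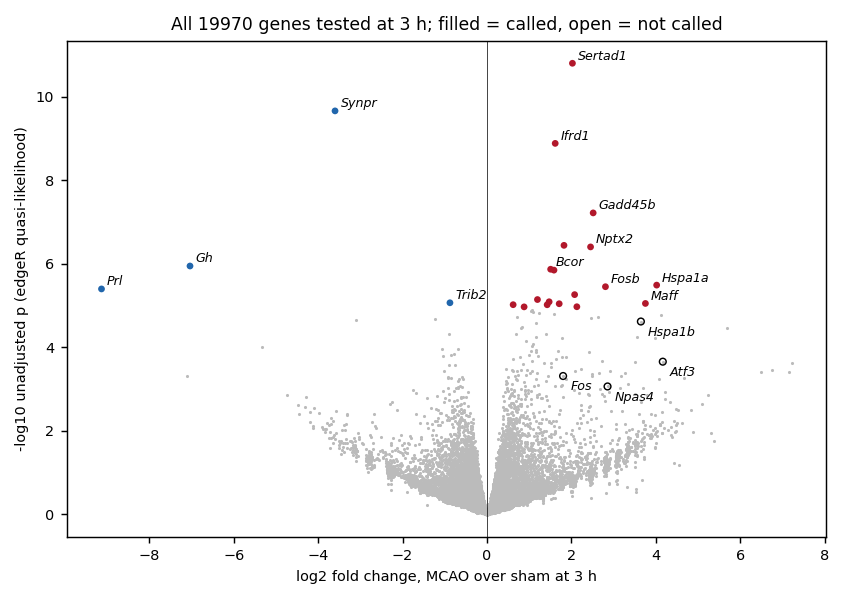
Each of the 19970 genes by its fitted log2 fold change, MCAO over sham at 3 h, and the negative log10 of its unadjusted p. Red and blue points mark the 18 risen and 4 fallen genes, led by *Sertad1* with the smallest p, and open circles mark 4 stress and activity genes that were not called in this fit.

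Among the immediate early transcription factors, *Fosb*, an AP-1 subunit of the Fos family on chromosome 7, was at 433, 187, 112, 70.2 and 176 CPM in MCAO A to E and at 16.2, 36.3, 35.4 and 24.0 CPM in sham A to D. The lowest MCAO library was thus above the highest sham library, while the MCAO libraries themselves spanned a wide range with A on top. The log2 fold change of *Fosb* was 2.81 (SE 0.54, edgeR adjusted p = 0.00647). *Maff*, a small Maf protein that pairs with AP-1 and NRF2 proteins, was nearly silent in sham, at 1.98, 2.30, 0 and 0.545 CPM, and lay within a narrow band of 14.5, 21.3, 18.04, 15.9 and 15.03 CPM after MCAO. Its log2 fold change was 3.75 (SE 0.76, edgeR adjusted p = 0.00963). *Csrnp1*, a nuclear protein first described as induced by AXIN1, had the tightest sham values, 10.7, 10.4, 9.86 and 9.81 CPM, and reached 61.5, 47.7, 27.3, 12.9 and 33.3 CPM after MCAO (log2 fold change 1.83, SE 0.31, edgeR adjusted p = 0.00132). In *Csrnp1* too, MCAO D was the lowest injured library and only just cleared the sham range.

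Those 3 were the called members of a list of 28 immediate early transcription factors, of which 25 did not pass the test and none fell. The list had a median log2 fold change of 1.01, beside 0.00 for all genes tested, and 25 of its members were above 0, beside 49.5% of all genes. *Fos* itself was at 184, 131, 49.5, 29.3 and 60.6 CPM after MCAO and at 21.0, 32.8, 35.0 and 14.7 CPM in sham. MCAO D therefore lay within the sham range, and the log2 fold change of 1.80 (SE 0.48) was not called (edgeR adjusted p = 0.0946). *Npas4*, a transcription factor of neurons that responds to calcium entry, stood at 366 CPM in MCAO A and at 29.7 to 66.6 CPM in the other 4, above the 11.9 to 17.5 CPM of sham, with an edgeR adjusted p of 0.131. *Atf3*, a stress-induced ATF/CREB factor, went from at most 1.64 CPM in sham to 4.56 to 14.7 CPM after MCAO without overlap (edgeR adjusted p = 0.0646). *Fos*, *Npas4* and *Atf3* were called in the fit of the 9 libraries, with edgeR adjusted p of 0.00635, 0.00327 and 2.98e-04, as was *Fosl2*. *Junb* (log2 fold change 1.23) and *Egr1* (0.51) were called in neither fit, and *Egr1* was already at 286 to 346 CPM in sham.

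Of 18 activity-induced plasticity and secreted genes, *Nptx2* and *Rgs2* rose, 16 did not pass and none fell. All 18 had a log2 fold change above 0, with a median of 1.03. *Nptx2* encodes a neuronal pentraxin that clusters AMPA receptors at synapses. It was at 296, 308, 106, 97.4 and 240.1 CPM after MCAO against 32.0, 46.1, 52.9 and 21.3 CPM in sham (log2 fold change 2.45, SE 0.42, edgeR adjusted p = 0.00132). *Rgs2*, which speeds GTP hydrolysis by Gq proteins, was at 1004, 549, 296, 225 and 470.1 CPM after MCAO and at 147, 191, 179.7 and 215 CPM in sham (log2 fold change 1.47, SE 0.30, edgeR adjusted p = 0.00963). For both genes MCAO C and D were the lowest injured libraries, and for *Rgs2* D exceeded the highest sham library by a small margin only. *Bdnf*, a neurotrophin, had a log2 fold change of 1.21 and *Arc*, which governs AMPA receptor uptake, one of 0.95, and neither was called (edgeR adjusted p = 0.0533 and 0.554). The order of the injured libraries recurred across the risen genes, since MCAO A was highest in 9 of the 18 and D was lowest in 10. MCAO A also had the highest striatal marker sum, and D one of 423 CPM. MCAO C, with the lowest sum of the injured libraries (372 CPM), was highest in 4 of the 18 genes. MCAO B, with 1961 CPM, was highest in 3. The part of the striatal content in these values was not tested. With the 3 libraries of highest striatal sum left out, which leaves fewer samples, 3 of the 22 genes were called (*Sertad1* at 1.90, *Ifrd1* at 1.44 and *Synpr* at -3.17). The log2 fold change of *Fosb* was then 2.04, that of *Nptx2* 1.76, that of *Gadd45b* 2.13 and that of *Hspa1a* 3.92.

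*Hspa1a*, the inducible Hsp70 chaperone, had another order of libraries. It was at 108, 275, 204, 417 and 89.7 CPM in MCAO A to E, with D on top, and at 14.2, 19.6, 13.4 and 6.54 CPM in sham. Its log2 fold change of 4.02 (SE 0.77, edgeR adjusted p = 0.00647) was the largest of the risen genes. *Hspa1b*, its near-identical neighbor on chromosome 17, was at 2.73 to 17.3 CPM in sham and 70.5 to 254 CPM after MCAO. It was just short of a call in the fit of all libraries (log2 fold change 3.65, edgeR adjusted p = 0.0143) and was called with the 9. Reads of these paralogs can be split between them or lost as multiply mapped, so the value of each is uncertain. In the list of 18 heat shock proteins and co-chaperones 1 rose, 17 did not pass and none fell, with a median log2 fold change of 0.32. The co-chaperone *Dnajb1* was at 96.6 to 166 CPM after MCAO and 51.2 to 73.7 CPM in sham, without overlap, and was called with the 9 libraries only.

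The promoters of the called heat shock gene and of the 3 called immediate early factors are shown because these factor families are classically read through short promoter elements. The stretches run from 250 bases before to 50 after the RefSeq start in GRCm38.p6 and were searched on both strands for TGACGTCA (the cAMP response element, CRE), TGANTCA (AP-1), GAANNTTC (a facing pair of heat shock element units) and the CArG box. Capitals mark every match.
*Hspa1a*, chr17:34972107-34972406, minus strand: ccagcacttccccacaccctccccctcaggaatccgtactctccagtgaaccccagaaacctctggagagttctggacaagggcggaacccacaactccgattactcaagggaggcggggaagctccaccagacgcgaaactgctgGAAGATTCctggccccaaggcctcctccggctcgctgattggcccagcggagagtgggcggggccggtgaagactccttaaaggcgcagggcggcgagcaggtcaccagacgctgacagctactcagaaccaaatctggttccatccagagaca
*Fosb*, chr7:19309996-19310295, minus strand: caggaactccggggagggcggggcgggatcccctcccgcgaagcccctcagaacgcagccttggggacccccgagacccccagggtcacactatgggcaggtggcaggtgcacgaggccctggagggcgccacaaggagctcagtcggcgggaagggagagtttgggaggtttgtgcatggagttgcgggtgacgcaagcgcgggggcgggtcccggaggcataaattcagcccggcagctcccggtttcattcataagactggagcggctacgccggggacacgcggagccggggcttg
*Csrnp1*, chr9:119984693-119984992, minus strand: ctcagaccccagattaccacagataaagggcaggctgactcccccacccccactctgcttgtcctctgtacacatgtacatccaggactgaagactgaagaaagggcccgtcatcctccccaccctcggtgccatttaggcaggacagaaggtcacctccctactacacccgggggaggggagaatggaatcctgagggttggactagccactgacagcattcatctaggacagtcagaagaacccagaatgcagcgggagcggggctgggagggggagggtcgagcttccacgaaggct
*Maff*, chr15:79346371-79346670, plus strand: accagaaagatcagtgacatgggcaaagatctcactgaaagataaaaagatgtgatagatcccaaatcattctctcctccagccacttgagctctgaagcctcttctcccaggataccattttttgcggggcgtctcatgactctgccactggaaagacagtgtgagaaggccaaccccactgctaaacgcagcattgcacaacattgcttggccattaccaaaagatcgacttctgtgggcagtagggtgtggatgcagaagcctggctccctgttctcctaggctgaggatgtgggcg
The only match was the heat shock unit pair GAAGATTC in *Hspa1a*, 104 bases before the start. Of 32851 promoters of the same length, 7.86% held that motif, 7.81% the AP-1 motif, 1.79% the CRE and 1.63% a CArG box. A promoter entry was matched for 16 of the 18 risen genes. Among them the heat shock motif was found in 1 (*Hspa1a*), a CArG box in 1 (*Prkab2*), and the other motifs in 0. These counts say only that the letters are or are not in these windows.

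Growth arrest and DNA damage genes formed the next group, and *Gadd45b* and *Gadd45g* were called. *Gadd45a*, in the same list, was not (log2 fold change 0.18, edgeR adjusted p = 0.985). *Gadd45b*, which activates the p38 and JNK pathway and is induced by synaptic activity as well as by stress, was at 97.6, 75.6, 31.5, 36.6 and 86.1 CPM after MCAO and 8.70, 12.1, 14.3 and 10.4 CPM in sham. The lowest injured library was well above the highest sham library, and the log2 fold change was 2.52 (SE 0.39, edgeR adjusted p = 3.03e-04). *Gadd45g*, its paralog, was at 266, 107, 101, 87.0 and 78.8 CPM against 20.2, 30.5, 42.6 and 27.3 CPM (log2 fold change 2.08, SE 0.41, edgeR adjusted p = 0.00848). MCAO A stood far above the other 4. Of the 14 genes in this list 2 rose, 12 did not pass and none fell, and the median log2 fold change was 0.51. *Cdkn1a*, which encodes the cell cycle inhibitor p21, was at 181 to 429 CPM after MCAO and 94.1 to 113 CPM in sham without overlap, with an edgeR adjusted p of 0.0239 in the fit of all libraries and a call with the 9.

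The smallest adjusted p of the comparison belonged to *Sertad1*, a regulator of CDK4 and E2F transcription. It was at 79.6, 74.7, 73.0, 42.2 and 77.9 CPM after MCAO and at 19.4, 17.8, 14.3 and 16.4 CPM in sham (log2 fold change 2.03, SE 0.23, edgeR adjusted p = 3.14e-07). Apart from MCAO D the injured libraries lay close together. *Ifrd1*, a transcriptional coregulator, was at 304, 189, 278, 116 and 166 CPM against 84.6, 62.2, 58.7 and 68.1 CPM, with a log2 fold change of 1.62 (SE 0.22, edgeR adjusted p = 8.71e-06). The chromatin genes *Phf13*, a reader of methylated histone H3, and *Bcor*, a BCL6 corepressor of a Polycomb complex, had log2 fold changes of 1.59 and 1.51. *Phf13* lay at 27.6 to 56.5 CPM over 13.2 to 17.4 CPM, and *Bcor* at 52.9 to 112 CPM over 19.6 to 33.6 CPM.

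The remaining risen genes belonged to several functions. *Apold1*, an endothelial early response gene, was at 39.8, 35.0, 45.3, 30.6 and 17.3 CPM after MCAO against 7.51, 9.79, 6.27 and 7.09 CPM in sham (log2 fold change 2.13, edgeR adjusted p = 0.00985). *Akap12*, a scaffold of protein kinase A, rose with a log2 fold change of 1.71 and was highest in MCAO C at 180.4 CPM. The zinc finger gene *Zbtb1* (1.43), the poly(A)-binding protein gene *Pabpc4* (1.20), the AMPK subunit gene *Prkab2* (0.88) and the glutamyl-prolyl-tRNA synthetase gene *Eprs* (0.62) had smaller log2 fold changes. *Eprs* was the smallest rise called, from 114 to 129 CPM in sham to 166 to 221 CPM after MCAO, and it was not called in the fit of the 9 libraries.

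Of the 4 genes that were lower, *Trib2*, a pseudokinase that acts on C/EBP proteins, was at 59.1, 77.0, 78.0, 80.6 and 61.0 CPM after MCAO and at 139, 145, 111 and 129.7 CPM in sham. The groups did not overlap, and it fell by 0.88 on the log2 scale (SE 0.18, edgeR adjusted p = 0.00963). *Gh* and *Prl*, the pituitary hormones growth hormone and prolactin, were called lower only through sham C, where they reached 376 and 138 CPM. In the other 8 libraries *Gh* was at 0 to 2.36 CPM and *Prl* at 0 to 0.545 CPM, and neither was called lower without sham C.

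*Synpr*, which encodes the synaptic vesicle protein synaptoporin, was at 3.01, 2.84, 4.61, 3.02 and 8.20 CPM after MCAO and at 44.7, 52.4, 46.2 and 73.0 CPM in sham, with a log2 fold change of -3.60 (SE 0.45, edgeR adjusted p = 2.17e-06). The low level was not tied to injury across the series. The 4 sham libraries of 12 h were low as well, at 4.17 to 13.3 CPM, whereas the MCAO libraries of 12 h were at 24.1 to 82.0 CPM and the controls at 52.5 to 118 CPM. The 5 MCAO libraries of 3 h and the 4 sham libraries of 12 h thus spanned 2.84 to 13.3 CPM and the other 39 libraries 13.7 to 144 CPM. *Gm15446* was also low in those 2 groups, with a median of 0 CPM against 2.43 to 8.46 CPM in the other 9, but it overlapped, since MCAO libraries of 3 h reached 1.82 CPM and those of 12 h went down to 1.04 CPM. Whether the animals of all groups came from 1 colony or substrain is not given in the sources used here, and what these 2 groups share beside their labels was not tested.

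Several chemokines were read in injured tissue and not at all in sham. *Ccl2*, which recruits monocytes, had 7, 18, 25, 10 and 12 reads in MCAO A to E and 0 in each sham library, so that it was at least 18.7-fold higher against a floor of 3 reads over the whole sham group. *Ccl3* had 11, 30, 18, 30 and 5 reads and *Ccl4*, like it a chemokine that attracts monocytes and T cells, had 18, 32, 13, 33 and 1 reads, again with 0 in all sham libraries. They were at least 24.5-fold and at least 25.2-fold higher. MCAO E held the fewest reads of both. *Cxcl1*, a ligand of the neutrophil receptor CXCR2, was found in all 5 MCAO libraries at 1.82 to 10.9 CPM and in 0 of the 4 sham libraries (at least 15.6-fold higher), but 2 of the 4 intact controls held 12.6 and 23.7 CPM. These 4 genes and *Cxcl2* were called in the fit of the 9 libraries (edgeR adjusted p between 1.30e-04 and 0.00163) and not in that of all 48 (0.0661 to 0.466).

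In the list of 22 chemokines and receptors, 0 were called over all libraries and 5 with the 9. The median log2 fold change was 2.21, or 2.23 over the 21 genes with a value when those at 0 in one group were set at their bound. The 2 members with the highest mean, *Cx3cl1* (-0.14) and *Ackr1* (0.20), showed no such difference. The cytokine genes *Il1b*, *Tnf* and *Il6* were near the limit of the depth. *Il1b* was at 6.03, 2.36, 11.7, 13.8 and 0.911 CPM after MCAO and at 0 to 1.19 CPM in sham, with overlap in MCAO E (edgeR adjusted p = 0.432). *Tnf* was at most 1.89 CPM and *Il6* at most 0.945 CPM in any of the 9 libraries, and neither was called in either fit. Whether a difference in such rare transcripts could be detected at this depth was not measured.

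**Figure D3:**
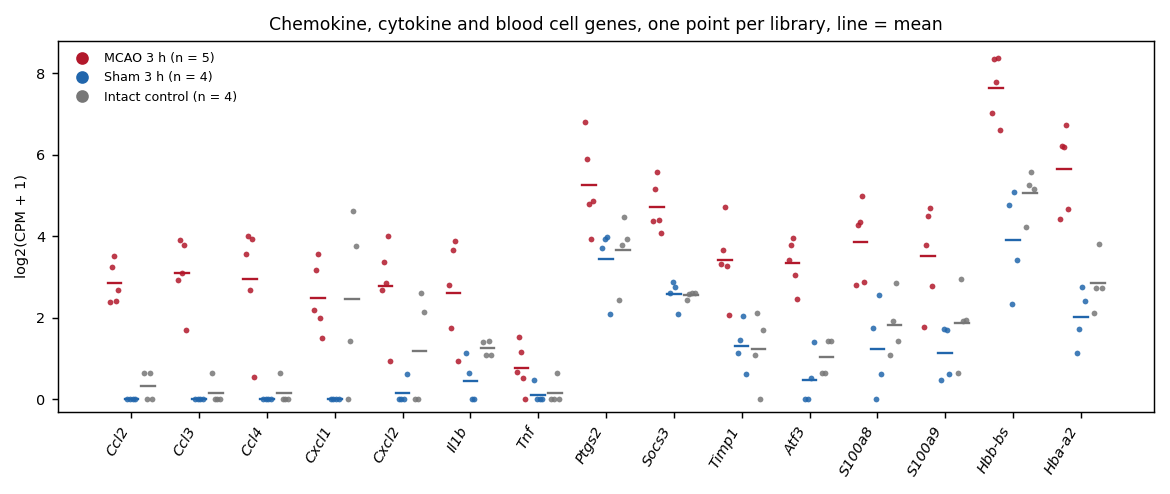
Chemokine, cytokine, STAT3-linked and blood cell genes as log2(CPM + 1), with 1 point per library for MCAO 3 h (red, n = 5), sham 3 h (blue, n = 4) and intact control (gray, n = 4) and a line at each mean. *Ccl2*, *Ccl3*, *Ccl4* and *Cxcl1* sit at 0 in all 4 sham libraries, and *Hbb-bs* is higher in all 5 MCAO libraries than in any sham or control library.

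Genes downstream of IL-6 family cytokines and STAT3 had a list median of 1.06 over 21 members (0.85 over 20 with bounds), with 0 called over all libraries and 3 with the 9. *Socs3*, the feedback inhibitor of that pathway, was at 19.9, 35.0, 47.0, 20.2 and 15.9 CPM after MCAO and at 5.14, 6.33, 5.83 and 3.27 CPM in sham, without overlap (edgeR adjusted p = 0.159 over all libraries and 6.44e-05 over the 9). The other 2 were *Cebpd*, an acute phase transcription factor, at 21.9 to 38.2 over 3.82 to 10.9 CPM, and *Timp1*, a metalloproteinase inhibitor, at 3.19 to 25.6 over 0.545 to 3.14 CPM. MCAO C was the highest library for all 3. *Stat3* (log2 fold change 0.58) and *Lifr* (0.00), the most abundant of the list, were not called. In the IL-1, TNF and NF-kB list (24 genes, median 0.86) none was called in either fit, with *Nfkbia* at 0.65 and *Vcam1* at -0.38.

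Red blood cell transcripts were more abundant in every injured library. The sum of 5 erythroid markers was 179.9 to 627 CPM after MCAO, 10.4 to 97.3 CPM in sham and 38.5 to 117 CPM in control. *Hbb-bs*, adult beta globin, was at 130.2, 326, 219, 333 and 97.5 CPM after MCAO and 26.1, 4.03, 33.2 and 9.81 CPM in sham (log2 fold change 3.55, edgeR adjusted p = 0.0267 over all libraries and 9.62e-07 over the 9). *Hba-a1* and *Hba-a2*, near-identical alpha globin copies whose reads cannot be safely separated, had log2 fold changes of 2.40 and 4.11. The neutrophil markers summed to 10.3 to 63.3 CPM after MCAO and 3.27 to 9.41 CPM in sham. The controls, at 5.58 to 15.7 CPM, overlapped the MCAO range. Of the 9 neutrophil genes tested, 7 had a log2 fold change above 0 and 2 had a mean of at least 5 CPM. Their median was 0.91, or 1.86 over 8 with bounds. *S100a8* and *S100a9*, which are also carried by circulating neutrophils, were at 6.03 to 30.6 and 2.41 to 24.99 CPM after MCAO. They were called with the 9 libraries and not with all (edgeR adjusted p = 0.480 and 0.479). The study's methods describe perfusion of the animals with buffer before dissection. Blood left in the tissue carries both kinds of transcript, and its part in the chemokine values was not tested. Among the injured libraries, *Hbb-bs*, *Ccl3*, *Ccl4* and *Il1b* were lowest in MCAO E, and *Ccl2*, *S100a8*, *S100a9* and the neutrophil sum in MCAO A.

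Other stress lists had medians above that of all genes with no called member over all libraries. Metallothionein and NRF2 genes (14 tested) had a median of 0.56. *Mt1* and *Mt2*, which bind zinc and copper, were at 779 to 1329.8 and 498 to 821 CPM after MCAO over 492 to 742 and 317 to 362 CPM in sham, both without overlap, with edgeR adjusted p of 0.0845 and 0.160. *Mt2* (adjusted p = 1.77e-04) and *Srxn1*, an antioxidant enzyme gene (0.00306), were called with the 9 libraries. Hypoxia-inducible factor targets (23 tested) had a median of 0.37, with *Ldha* at 0.29, *Egln1* at -0.10, and *Vegfa*, the angiogenic growth factor, at 0.51 (edgeR adjusted p = 0.450). The ER and integrated stress list (22 tested) had a median of 0.30, with the ER chaperones *Hspa5* at 0.30 and *Calr* at -0.07. ERK feedback genes (15 tested, median 0.58) were led in abundance by *Spred1* (-0.07) and *Dusp8* (-0.07), and the phosphatase gene *Dusp14* (0.78) was called with the 9 libraries.

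Vascular and wound ligands (23 tested) had a median of 0.92, with the growth factor *Hbegf* at 0.72. Eicosanoid genes (12 tested) had a median of 0.58. *Ptgs2*, which encodes the inducible cyclooxygenase, was at 111, 59.1, 26.8, 14.2 and 28.2 CPM after MCAO and 12.3, 14.4, 14.8 and 3.27 CPM in sham, and *Ptgds* had a log2 fold change of 0.21. No member of either list was called in the fit of all libraries, while *Ptgs2*, *Adamts1* and *Ccn1* were called with the 9. Glucocorticoid-responsive genes (14 tested) had a median of 0.33, with *Klf9* at 0.26. Circadian clock genes (17 tested) had a median of 0.40, with *Tef* at 0.40 and *Hlf* at -0.35, and *Ciart* was called with the 9 libraries. Apoptosis and necroptosis genes (16 tested) had a median of 0.29, with *Hrk* at 0.07 and *Bcl2l1* at -0.13.

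**Figure D4:**
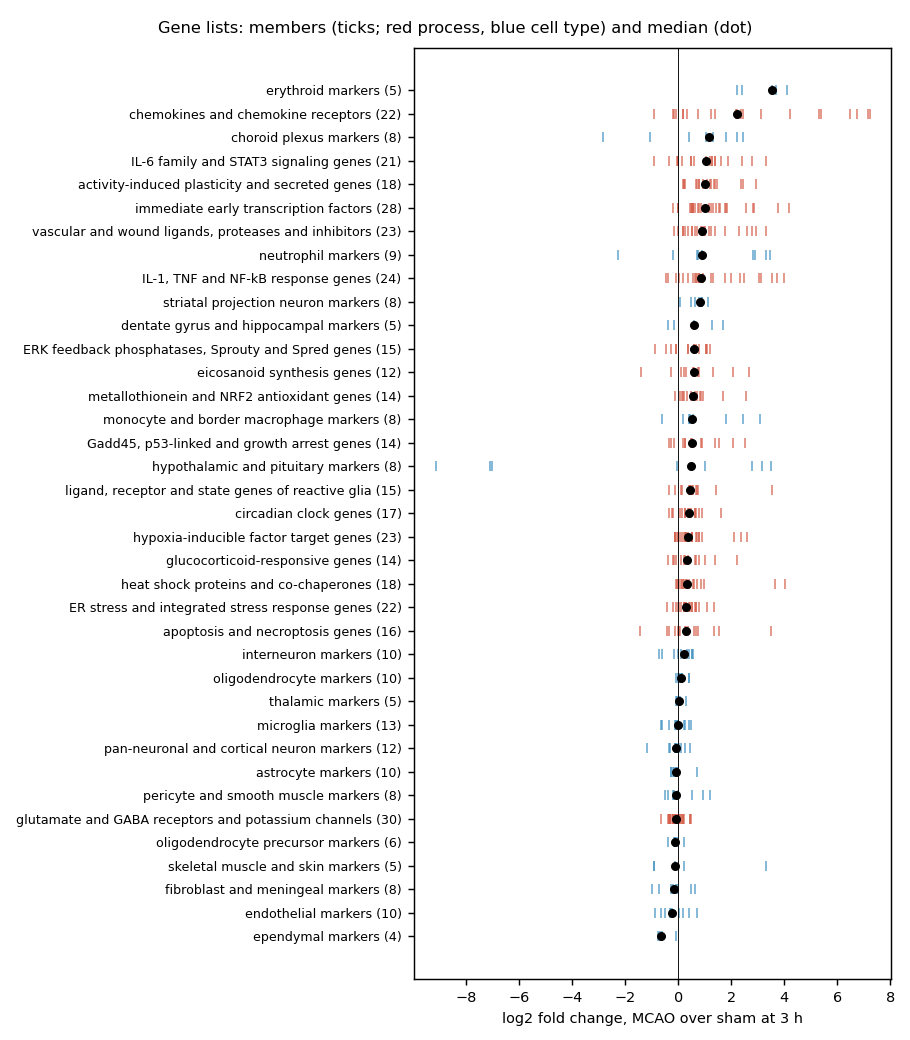
Log2 fold changes, MCAO over sham at 3 h, of the members of each gene list (ticks, red for processes and blue for cell type markers) with the list median as a black dot and the number tested in parentheses. Erythroid markers have the highest median (3.55), followed by chemokines (2.21), while medians of neuronal and glial markers lie near 0. Of the 22 chemokine list genes, only 5 had a mean of at least 5 CPM, with a median of -0.08. Ticks of genes at 0 in one group depend on the prior count of the fit.

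No marker of the resident cells was called over all libraries at 3 h. None of the lists for neurons, interneurons, astrocytes, oligodendrocytes and their precursors, microglia, endothelium, mural cells and fibroblasts had a called member, and their medians ranged from -0.25 to 0.22. For neurons (12 genes, median -0.07), *Nrgn* was at -0.34, *Camk2a* at 0.02, *Rbfox3* at -0.08 and *Slc17a7* at 0.26. *Neurod6* and *Neurod1*, basic helix-loop-helix factors of glutamatergic neurons that were chosen after their values were seen, were lower in every MCAO library than in any sham library, and both were called with the 9 libraries. *Neurod6* was at 41.0, 17.5, 71.3, 28.0 and 28.2 CPM after MCAO and at 87.4, 72.0, 89.6 and 88.9 CPM in sham (log2 fold change -1.18, edgeR adjusted p = 0.162 over all libraries). Interneuron markers (10 genes, median 0.22) were represented by *Cck* at -0.15 and *Sst* at 0.34. Glutamate and GABA receptor and potassium channel genes (30 tested) had a median of -0.10 and none was called, with *Grin2b* at -0.34 and *Gria2* at -0.23.

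The astrocyte marker sum was 4254 to 4628 CPM after MCAO and 5051 to 5175 CPM in sham, so the groups did not overlap although no single marker was called. The sum is weighted to the abundant markers, above all *Slc1a2*. Over the 10 markers the median log2 fold change was -0.09, and 2 were lower without overlap on their own, beside 1.31% of all genes. The list of 10 endothelial markers also had 2 such members. *Slc1a2*, the main glutamate transporter of astrocytes, was at 2244 to 2451 CPM after MCAO and 2705 to 2996 CPM in sham (log2 fold change -0.28, edgeR adjusted p = 0.578), while *Aldoc* was at -0.10. *Gfap*, the filament gene of reactive astrocytes, was at 65.1 to 129 CPM over 40.7 to 77.1 CPM, overlapping, with a log2 fold change of 0.72 (edgeR adjusted p = 0.606). In the list of ligands, receptors and states of reactive glia (15 tested, median 0.45) *Apoe* was at 0.09, and *Trem2* was at 0.40. For microglia (13 genes, median -0.02) *Cx3cr1* was at -0.08 and *Csf1r* at -0.02. Oligodendrocyte markers (10, median 0.12) included *Mbp* at 0.16, and precursor markers (6, median -0.11) *Olig2* at -0.11 and *Vcan* at 0.21.

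Endothelial markers (10, median -0.25, with 4 above 0) included *Flt1* at 0.17, *Ly6c1* at 0.04 and *Slco1a4* at -0.89. Of the 10, 2 were lower without overlap, beside 1.31% of all genes. *Slco1a4* was 1 of these, at 16.8 to 31.3 CPM after MCAO and 41.9 to 65.4 CPM in sham. Mural markers (8, median -0.09) included *Rgs5* at -0.39 and *Vtn* at -0.17. Fibroblast markers (8, median -0.15) included *Igf2* at -0.20 and *Dcn* at -0.98. *Dcn* was at 145 CPM in sham C and 19.8 to 32.3 CPM in the other 8 libraries, and its log2 fold change was 0.21 without sham C. Monocyte and border macrophage markers (8, median 0.51, or 0.39 with bounds over 7) included *Lyz2* at 0.46 and *Pf4* at 1.80. Markers of neighboring regions did not pass either. The striatal list (8 tested) had a median of 0.83, with *Ppp1r1b* at 0.92, the thalamic list (5) one of 0.04, with *Ramp3* at -0.03 and *Tcf7l2* at 0.29, and the hippocampal list (5) one of 0.59, with *Wfs1* at 0.59 and *Prox1* at -0.17. Choroid plexus (8, median 1.17) and ependymal genes (4, median -0.65) were under 5 CPM in the mean, with *Clic6* at 2.22, *Kcnj13* at -1.07, *Rarres2* at -0.08 and *Foxj1* at -0.70. Of 7 muscle and skin genes 5 were tested (median -0.14), with *Acta1* at -0.14 and *Mylpf* at -0.91, and of 6 lymphocyte genes only *Nkg7* was tested, found in 1 sham library.

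The intact controls allowed the operation itself to be set beside the injury. No gene was called between sham at 3 h and control (0.0% of 19970, edgeR, with 0 by DESeq2), and 736 genes had an unadjusted p under 0.05. Without calls, some lists still differed. Mural markers summed to 154 to 191 CPM in sham and 215 to 248 CPM in control. The median log2 fold change of sham over control was -0.71 for mural and 0.43 for glucocorticoid-responsive genes, beside -0.01 for all genes. These 2 lists did not stand alone. The median was -0.67 for fibroblast, -0.68 for monocyte and border macrophage, -0.96 for neutrophil and -0.93 for choroid plexus markers. It was -0.57 for striatal and 1.95 for ependymal markers. MCAO at 3 h against control gave 26 genes (0.13%), 23 higher and 3 lower. The count was 185 with the compared groups alone, 80 by DESeq2, 8 without the striatal libraries and 10 without control A. Control A held 506 CPM of choroid plexus markers, against 0.571 to 6.75 CPM in the other 3 controls. *Fosb* had a log2 fold change of 3.59 against control and 2.81 against sham, *Nptx2* one of 2.85 and 2.45, *Gadd45b* one of 2.21 and 2.52, and *Sertad1* one of 1.68 and 2.03. These comparisons share the MCAO libraries. *Cdkn1a* was called against control (log2 fold change 2.23, edgeR adjusted p = 8.52e-05) and its sham level was 0.83 above control on the log2 scale, a difference that was not called. *Homer1*, a scaffold of the postsynaptic density, was called against control at 1.06 and was 0.69 against sham. *Slc4a11*, a membrane transporter gene, had the largest rise against control (3.69), and was at 1.58 against sham (edgeR adjusted p = 0.316). *Slco1a4*, an organic anion transporter of brain endothelium, fell by 1.35 on the log2 scale against control and differed by -0.89 from sham (edgeR adjusted p = 0.0711).

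*Hspa1a* was not called against control, where its log2 fold change was 3.61 (edgeR adjusted p = 0.0106) and control C held 37.3 CPM, above the 8.37 to 17.1 CPM of the other controls. *Maff* likewise was at at most 3.996 CPM in control and 14.5 to 21.3 CPM after MCAO. *Tmem181b-ps*, a pseudogene, was called against control at 2.34, with 37.0 to 49.1 CPM after MCAO, 13.1 to 36.8 CPM in sham and 4.46 to 12.4 CPM in control. It varied between groups of the series without following injury, for example with a median of 0 CPM in the MCAO libraries of 24 h and of 33.9 CPM in sham at 12 h.

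Whether the response was particular to 3 h was tested by subtracting the MCAO effect (over sham of the same time) at later times. Against 12 h, 2 genes (0.01%) differed, *Synpr* and *Gm15446*, whose 12 h sham values were given above. Against the mean effect of 12 h, 24 h, day 3 and day 7, 13 genes (0.0651%) differed, 6 with a larger and 7 with a smaller effect at 3 h. Without the 3 libraries of highest striatal sum, only *Synpr* was called. Without sham C, *Ifrd1* (edgeR adjusted p = 0.0339), *Sertad1* (0.0736), *Homer1* (0.0287), *Ciart* (0.0704), *Leprot* (0.0339), *Ctss* (0.0195) and *Dcn* (0.404) were not called. *Ifrd1* was 1.32 higher at 3 h than in the later mean (SE 0.24, edgeR adjusted p = 0.00437). Its log2 fold changes along the time course were 1.62, 1.13, 0.79, -0.15 and -0.57. *Sertad1* was 1.32 higher, with values of 2.03, 0.83, 0.87, 0.97 and 0.13. *Homer1* was 1.14 higher (0.69 at 3 h and -0.84 at day 7), and the clock gene *Ciart* was 2.42 higher, being at 1.63 at 3 h and between -1.05 and -0.53 later.

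The effect was lower at 3 h than in the later mean for *Gfap*, *S100a6*, *Ctss*, *Leprot* and *Dcn*. *Gfap* was 2.62 below the later mean on the log2 scale, *S100a6* 1.84 below and *Ctss*, a lysosomal protease of microglia, 1.70 below. *Leprot*, which encodes an endosomal protein, was 1.49 below the later mean, with 6.03 to 8.81 CPM after MCAO and 15.3 to 19.0 CPM in sham at 3 h. Its log2 fold change was -1.23 at 3 h and -0.06, -0.04, 0.59 and 0.56 later, and it was not called at any single time. *Dcn* was 2.91 below, and the difference was -1.71 without sham C. *Tmem181b-ps* (2.36 higher) was at most 0.425 CPM in the 4 MCAO libraries of 24 h.

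For the other risen genes no difference from later times was called. *Fosb* was at 2.81, -0.11, 1.45, 1.08 and 0.76 from 3 h to day 7, *Phf13* at 1.59, -0.39, -0.05, -0.10 and 0.62, and *Bcor* at 1.51, -0.29, 0.09, -0.17 and 0.45. *Hspa1a* had log2 fold changes of 4.02, 4.46 and 3.01 at 3, 12 and 24 h, and was called at 3 and 12 h. At 12 h the MCAO libraries spanned 9.64 to 723 CPM over 6.14 to 9.24 CPM in sham, and at 24 h they spanned 7.65 to 197 CPM and overlapped the 6.71 to 13.9 CPM of sham (edgeR adjusted p = 0.109). *Gadd45g*, *Sertad1* and *Akap12* were called again at day 3. Counted over all genes by the same rule, MCAO against sham gave 22 calls at 3 h, 82 at 12 h, 18 at 24 h, 802 at day 3 and 698 at day 7.

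**Figure D5:**
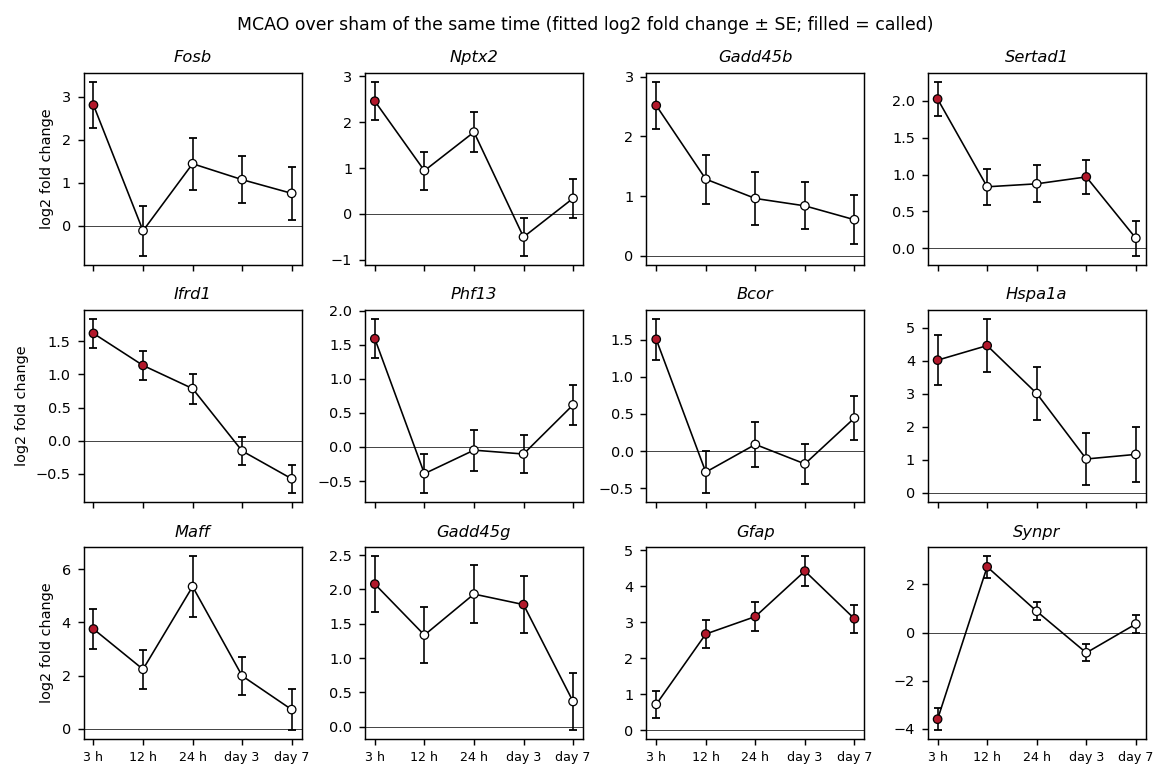
Fitted log2 fold change of MCAO over sham of the same time (points, bars are SE) for 12 genes at 3 h, 12 h, 24 h, day 3 and day 7, with filled points where the gene was called. *Fosb*, *Phf13* and *Bcor* are called at 3 h only, *Hspa1a* at 3 and 12 h, *Gfap* from 12 h on, and *Synpr* has opposite signs at 3 and 12 h.

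Single genes outside the lists were called with the 9 libraries only and were chosen after their values were seen. *Baz1a*, a subunit of a chromatin remodeler, was at 62.7, 35.4, 31.0, 15.5 and 39.6 CPM after MCAO and at 4.35, 6.33, 4.03 and 12.0 CPM in sham. *Tubb6*, a beta tubulin, was at 6.62 to 12.6 CPM over 0 to 0.791 CPM. *Mvd*, an enzyme of cholesterol synthesis, was at 62.8 to 96.4 CPM over 28.7 to 40.9 CPM. For all of them the groups did not overlap.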

How the data were processed

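Total RNA of injured cortex was made into 3′ end libraries (QuantSeq FWD kit) with ERCC spike-in RNA. The authors aligned trimmed, rRNA-filtered reads to GRCm38 with STAR 2.5.2b and deposited raw counts per gene from HTSeq, 1 table per library. The normalised table of the series was not used here. ERCC entries and unassigned read classes were left out of library sizes. Symbols and positions were matched by gene ID for 46488 of 46983 genes.

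Genes with more than 10 counts in total over 48 libraries (19970) were tested with edgeR 4.0.16 (TMM, quasi-likelihood) in R 4.3.3, in 1 fit of 11 groups. A call needed a Benjamini-Hochberg adjusted p under 0.01 and a log2 fold change beyond 0.58. CPM values are counts scaled to the library's gene counts times its TMM factor. The ERCC share was compared with an exact permutation test (SciPy 1.17.1, 126 splits), and figures were drawn with matplotlib 3.10.9. The study gave at least 4 mice per condition, but no label ties a library to an animal, so p-values measure the spread between these libraries, which may be partly technical. Data were simulated for MCAO against sham at 3 h (19644 genes), with changes placed only in genes averaging 5 CPM or more. There, 76% of changes of 1.5 and 41% of changes of 1 on the log2 scale were called, with 1 unchanged gene called. How often changes in rarer transcripts would be called was not measured.

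Named genes were the called genes with a mean of at least 5 CPM and no overlap between the groups (up to 12 per direction), up to 4 called members of each list or else its 2 most abundant members, and a set of 21 well-known genes. Other genes in the text were chosen after their values were seen. A few genes are not reported here. The members and lists were chosen with earlier results of these data known. A gene with 0 reads in a group was set against 3 reads over that group. Alternatives were DESeq2 1.42.0 size factors and test, other filters, spike-in scaling, the replicate letter as a block, a fit of the compared groups alone, each library left out and, added after seeing the data, the 3 libraries with most striatal RNA left out. The bounds cover counting error only, whereas each SE comes from the edgeR fit and includes the spread between libraries. Promoters were taken from RefSeq on GRCm38.p6.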

Additional observations from a re-analysis of the deposited data

Results flagged for a closer look

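In a group of 4 or 5 libraries, a library was listed when its gap to the nearest other library was a large share of the group's range by Dixon's criterion, which chance meets in about 1 of 20 groups. Of 222 groups of values checked, 19 met it. MCAO A stood high in *Gadd45g* (266 CPM), *Junb* (468 CPM) and *Npas4* (366 CPM). MCAO D stood low in *Sertad1* (42.2 CPM) and *Phf13* (27.6 CPM), and high in *Dusp8* (261 CPM) and in its ERCC share (5.27%). MCAO C was apart in *Mt1* (1330 CPM, high) and *Apoe* (1589 CPM, low), and MCAO B in *Vcan* (25.04 CPM) and the hypothalamic and pituitary marker sum (9.92 CPM). Sham C was high in *Gh* (376 CPM), *Prl* (138 CPM), *Dcn* (145 CPM), the hypothalamic and pituitary sum (553 CPM) and the neutrophil marker sum (9.41 CPM). Sham D was apart in *Grin2b* (1213 CPM, low) and *Aldoc* (1202 CPM, high), and sham B in the ependymal marker sum (23.6 CPM).

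The MCAO effect at 3 h differed from that at 12 h by -6.33 on the log2 scale for *Synpr* and by -8.27 for *Gm15446*, in the edgeR interaction test. The value of *Gm15446* rests on 0 reads in all sham libraries of 12 h and depends on the prior count of the fit. Against the mean of the later effects, the difference was -4.38 for *Synpr*, -4.47 for *Gm15446*, -2.91 for *Dcn*, -2.62 for *Gfap*, -1.84 for *S100a6*, -1.70 for *Ctss* and -1.49 for *Leprot*. It was 2.42 for *Ciart*, 2.36 for *Tmem181b-ps*, 1.32 for *Ifrd1*, 1.32 for *Sertad1* and 1.14 for *Homer1*. The value of *Tmem181b-ps* also depends on the prior count, through the MCAO libraries of 24 h.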

How the results depend on the processing

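For MCAO against sham at 3 h (22 calls), DESeq2 gave 58 calls, no filter on low counts 58, spike-in scaling 14, and a fit of the compared groups alone 85. Leaving out the 3 libraries with most striatal RNA, an alternative chosen after seeing the data, gave 3. Leaving out 1 library gave 5 to 20, with 5 without sham C, 6 without sham D, 8 without sham A or sham B, 7 without MCAO A, 10 without MCAO B and 14 without MCAO C. For MCAO against control (26), the same 5 alternatives gave 80, 74, 14, 185 and 8 calls, and 1 library less gave 10 to 36 (10 without control A, 14 without MCAO A, 15 and 16 without control B and C). Sham against control (0) gave 4 without a filter, 4 with the compared groups alone, 1 without the striatal libraries and 0 to 1 with 1 library less. The contrast of 3 h with 12 h (2) gave 5, 1 and 1 in the same order, and 2 to 5 with 1 library less (5 without sham D). The contrast of 3 h with the mean of later times (13) gave 26 by DESeq2, 30 without a filter, 8 with spike-in scaling, 8 with the compared groups alone, 1 without the striatal libraries, and 4 to 11 with 1 library less (4 without sham B, 5 without MCAO A or C, 6 without sham C, 7 without sham D, 8 without sham A or MCAO E). The cause of these shifts was not tested, beyond the fewer samples. The ERCC difference ranged from 0.0519 to 0.366 percentage points with 1 library less (0.0519 without MCAO D, 0.138 without sham B). Of 17 alternatives, *Sertad1*, *Ifrd1* and *Synpr* were called in all.

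Replicate letters share only a letter: deviations of same-letter MCAO and sham libraries correlated at -0.074, 0.038, -0.151 and 0.160. With the letter as a replicate block, the 5 counts were 22, 30, 0, 2 and 15, and 16 of the 22 genes were shared.

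Among the called genes only *Gh* changed sign (-8.32 to 3.53 with 1 library less). The other changes of sign were in genes that were not called, as log2 fold changes. *Lifr* was 0.0052 with DESeq2 size factors, 0.0034 by DESeq2, 0.0074 without a filter and 0.0051 with the compared groups alone. With spike-in scaling, *Hrk* was -0.063, *Apoe* -0.0054, *Camk2a* -0.10 and *Ly6c1* -0.039. Without the striatal libraries, *Hrk* was -0.091, *Cx3cr1* 0.0045, *Csf1r* 0.17, *Ly6c1* -0.17, *Ramp3* 0.085, *Tcf7l2* -0.082, *Acta1* 0.080, *Il6* -1.80 and *Rbfox3* 0.15, and *Ramp3* was 0.074 with the block. With 1 library less, the ranges were -0.18 to 0.029 for *Spred1*, -0.10 to 0.066 for *Lifr*, -0.15 to 0.39 for *Hrk*, -0.072 to 0.10 for *Camk2a*, -0.23 to 0.094 for *Cx3cr1*, -0.10 to 0.094 for *Csf1r*, -0.050 to 0.12 for *Ly6c1*, -1.27 to 0.21 for *Dcn*, -0.34 to 0.41 for *Rarres2*, -0.15 to 0.042 for *Ramp3*, -1.54 to 2.01 for *Il6* and -0.20 to 0.059 for *Rbfox3*.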
